A study of Mus musculus with 6 samples.

Results

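The proteasome is the protease that degrades ubiquitin-tagged proteins, and its genes were examined here as a group in lung interstitial macrophages of mice given β-glucan or saline. The members were the rows of the count table whose Ensembl identifier maps to a mouse symbol that begins with Psma, Psmb, Psmc, Psmd, Psme, Psmf or Psmg followed by a digit. They were 50 of 21965 genes. Of these, 48 passed the filter on low counts and were tested. Psma8, a testis-specific α-subunit, and Psmb11, the catalytic subunit of thymic epithelium, did not pass. Psmc3ip matched the symbol pattern but encodes a partner of meiotic recombinases and no proteasome subunit, and Psme2b is a single-exon copy of Psme2.

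Both groups were C57Bl/6 mice aged 6 to 8 weeks. They had received either PBS or WGP, a particulate β-glucan of yeast cell walls, at 1 mg into the peritoneum, with treatment stated to last 6 days. Lungs were taken on day 7, dissociated, and interstitial macrophages, which live in the tissue around airways and vessels, were sorted with fluorescent antibodies that the labels do not name. PolyA-selected RNA gave 3 libraries per group, all with the word Control in their titles, PBS and WGP alike. Nothing in the labels ties a library to 1 mouse or to a pool. The p-values therefore reflect how much these libraries varied, and that variation could be technical.

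A proteasome is built from a barrel-shaped 20S core and caps that open it. The core has outer rings of α-subunits, which form the gate, and inner rings of β-subunits, of which Psmb5, Psmb6 and Psmb7 encode the chymotrypsin-like, caspase-like and trypsin-like proteases. Interferon induces replacements for these (Psmb8, Psmb9 and Psmb10), which make the immunoproteasome, as well as the cap PA28 encoded by Psme1 and Psme2. In macrophages the immunoproteasome is known for supplying peptides to MHC class I. The 19S cap, with a base of ATPases and a lid, recognises, unfolds and deubiquitinates substrates.

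Promoter sequences were read to set these expression values beside the motifs of factors known to act on this gene family. The RefSeq table of promoters (GRCm38, 250 bases before to 50 after a start) held 42 of the 50 members. Motifs were searched on both strands. They were the core of the interferon-stimulated response element (ISRE, GAAANNGAA), the interferon-γ activated site (GAS, TTCNNNGAA) and the core of the antioxidant response element (ARE, TGACNNNGC). ISRE was present for 7 members, GAS for 3 and ARE for 6, where a match in any promoter of a member counted. Counted per promoter and not per gene, the shares of all 32851 promoters with a match were 8.56%, 8.3% and 12.4%. Outside the catalytic subunits and activators, ISRE matches were in Psmb3, Psmb4, Psmc2, Psmd4, Psmd9 and Psmg4. GAS matches there were in Psmd2 and Psmg1, and ARE matches in Psmc6, Psmd12 and Psmd9. The matches in catalytic subunits and activators, the genes on which the comparison of standard and inducible proteasomes turns, are shown with 10 flanking bases on each side, 5′ to 3′ on the strand of the gene, with the motif in capitals.
Psmb5 (ARE, chr14:54618024-54618052, minus strand): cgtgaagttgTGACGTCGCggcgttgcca
Psmb6 (ARE, chr11:70525338-70525366, plus strand): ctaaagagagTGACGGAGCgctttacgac
Psmb8 (GAS, chr17:34198088-34198116, plus strand): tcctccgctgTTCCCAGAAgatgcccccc
Psme1 (ISRE on the opposite strand, chr14:55578494-55578522, plus strand): gagctgtgctTTCGCTTTCccttcccgct
Psme4 (ARE on the opposite strand, chr11:30771758-30771786, plus strand): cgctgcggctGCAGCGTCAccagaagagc
The Psmb5 match lies 47 to 39 bases before the start, that of Psmb6 9 to 1 before it, and that of Psmb8 97 to 89 before it. The Psme1 match lies inside the transcript, at bases 11 to 19, and the Psme4 match crosses the start. These positions count from the RefSeq start. By the gene coordinates of GENCODE, the Psmb8, Psme1 and Psme4 matches all lie inside the gene. Psmb7 was not among the members with a promoter. Psmb9, Psmb10, Psme2 and Psme3 had none of the 3 motifs in these windows, nor did any of the 7 α-subunits with a promoter in the table.

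Libraries held 18254678 to 20346517 counts, and at least 1 count was seen for 13902 to 14190 genes after PBS and 12970 to 13356 after WGP. All 13 interstitial macrophage markers had counts in every library, with sums of 8187 to 9219 CPM after PBS and 6637 to 7654 after WGP. Of these markers 3 rose (Cx3cr1, Fcgr1 and Csf1r) and 4 fell (Mertk, Mrc1, Apoe and Ms4a7), and the largest change was that of Mertk, from 166 to 20.6 CPM on average (log2 fold change -3.01 ± 0.21). Markers of other cells moved with treatment. The 12 alveolar macrophage markers summed to 4803 to 7200 CPM after PBS and 1288 to 1590.3 after WGP, the 8 classical monocyte markers to 2148 to 2811 and 6617 to 7998, and the 8 epithelial markers to 290.3 to 658 and 15.4 to 66.0, the last with 2 markers at 0 in some library. The 7 endothelial markers summed to 302 to 324 CPM after PBS and 95.9 to 113 after WGP, the 7 dendritic cell markers to 219 to 278 and 86.2 to 124, and the 7 fibroblast markers to 93.0 to 128 and 8.25 to 67.2, with 1 fibroblast marker at 0 in some library. The 8 lymphocyte markers overlapped, at 48.1 to 62.5 and 13.8 to 70.5 CPM, with 1 at 0 in some library. The 8 neutrophil markers, at 1139.9 to 2520.2 and 1472 to 2780.1 CPM, overlapped between the groups. Y-linked transcripts summed to 114, 180 and 10.6 CPM in PBS 1, 2 and 3 and to 207 to 229 in the WGP libraries. The Y-linked level was thus higher in every WGP library than in any PBS library, and it cannot be told apart from treatment. Fits with this level as a covariate, or with PBS 2, nearest the WGP level, as the lone PBS library, are given below. In bulk RNA, fewer cells of a type and less RNA per cell cannot be told apart, and the part of these shifts in the results below was not tested.

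After WGP, transcripts of several proteasome genes were modestly higher, mostly in the core, the immunoproteasome and the activators. Of the 48 tested members 12 rose (25.0%), against 15.2% of all 12305 genes tested, and none fell, against 15.7% of all genes (adjusted p under 0.05, edgeR's quasi-likelihood test, adjusted after Benjamini-Hochberg over the whole table tested). No member was lower at an unadjusted p under 0.05 either, and DESeq2 and limma-voom also called none lower. The median log2 fold change, WGP over PBS, was 0.19 for the members and -0.02 for all genes. All 3 WGP libraries lay above all 3 PBS libraries for 20 members (background 23.2%) and below them for 2, Psmd1 and Psmd7 (background 24.9%). Scaling by library sizes alone moved the median of all genes to -0.12 and the calls over all genes from 1874 higher and 1935 lower to 1236 and 2460. Under that scaling 7 members were higher (background 10%), and Psmd1 and Psmd7 were lower at -0.26 and -0.33 (edgeR adjusted p = 0.0488 and 0.0444, background 20%).

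**Figure D1:**
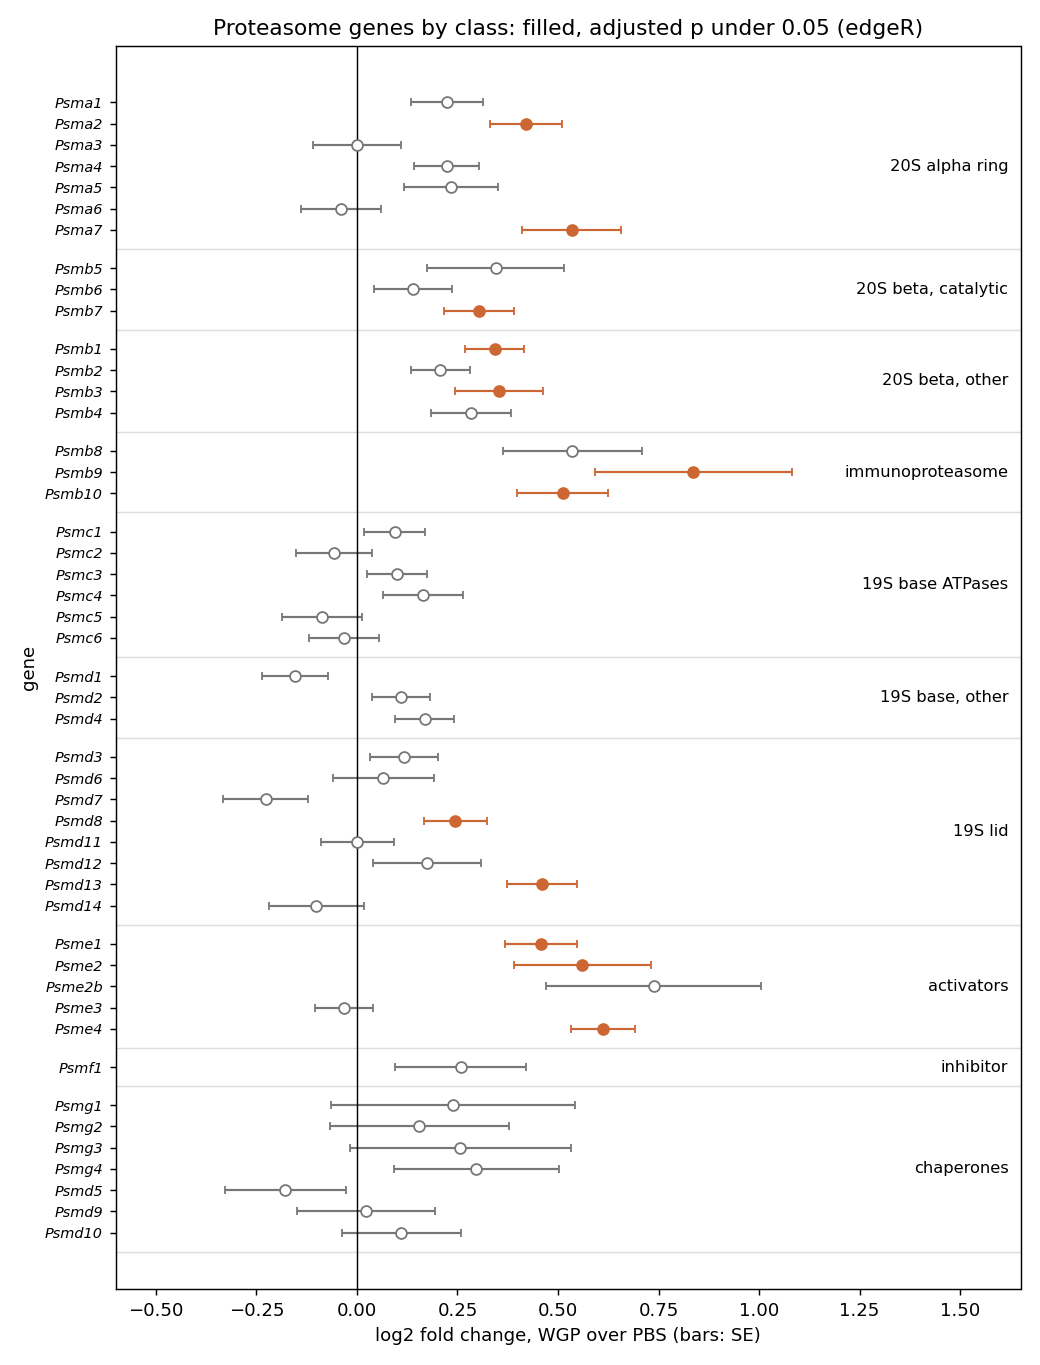
Log2 fold change (x axis, WGP over PBS, bars SE, n = 3 per group) of the tested proteasome genes by class (Psmc3ip left out), with filled points for adjusted p under 0.05. Of the filled points, 5 are in the 20S core, 2 in the immunoproteasome, 2 in the 19S lid and 3 among activators, and all lie right of 0.

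All 3 catalytic subunits of the immunoproteasome had every WGP library above every PBS library (background 23.2%), and 2 of them passed the test (background 15.2% higher). Psmb8, the inducible chymotrypsin-like subunit, is on chromosome 17 at 34197721 to 34201454, and Psmb9, the inducible caspase-like subunit, is on the same chromosome at 34181987 to 34187764. Psmb8 was at 162, 138 and 190.3 CPM after PBS and 195, 289 and 227 after WGP. The WGP libraries were all higher, but WGP 1 was only just above PBS 3. The log2 fold change of 0.54 ± 0.17 missed the threshold (edgeR adjusted p = 0.0552). It passed without PBS 3 (adjusted p = 0.0474), without WGP 1 (0.0147) and in DESeq2 (0.00186) and limma-voom (0.0240). Psmb8 shares 498 bases with Gm20496, an antisense gene on the opposite strand that is absent from the count table. Reads of these bases cannot be told apart.

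Psmb9 was at 61.3, 39.4 and 74.6 CPM after PBS and 101, 120.5 and 92.0 after WGP. Every WGP library exceeded every PBS library, and PBS 2 was well below the other PBS libraries. Its log2 fold change of 0.84 ± 0.24 was the largest of the members that passed, with an adjusted p close to the threshold (edgeR, 0.0485). The call was lost without PBS 1, WGP 1, WGP 2 or WGP 3 (adjusted p = 0.137, 0.104, 0.112 and 0.0698) and with DESeq2 size factors as scaling (0.0501). With PBS 2 as the lone PBS library the value was 1.41. The 5′ end of Psmb9 shares 212 bases with Tap1 on the opposite strand, and no source used here states a strand setting for the counting, so reads there cannot be told apart.

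Psmb10, the inducible trypsin-like subunit (chromosome 8, 105935735 to 105938444), was at 83.1, 74.5 and 96.5 CPM after PBS and 114, 137 and 111 after WGP. The groups did not overlap. Its log2 fold change was 0.51 ± 0.11 (edgeR adjusted p = 0.0066), and it passed in all 16 alternative analyses.

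The constitutive catalytic subunits, whose places these take, were less uniform. Psmb5 was at 19.7, 19.6 and 15.3 CPM after PBS and 26.6, 18.3 and 24.6 after WGP. WGP 2 fell among the PBS libraries, and the log2 fold change of 0.35 ± 0.17 did not pass (edgeR adjusted p = 0.15), though it did without WGP 2 (0.49, adjusted p = 0.0418). Psmb6 was at 64.6, 69.8 and 78.2 CPM after PBS and 81.3, 82.4 and 70.4 after WGP, with overlapping groups and a log2 fold change of 0.14 ± 0.10 (edgeR adjusted p = 0.31). Psmb7 was at 56.2, 48.5 and 51.8 CPM after PBS and 66.8, 63.5 and 62.9 after WGP. All WGP libraries were higher for Psmb7, at a log2 fold change of 0.30 ± 0.09 (edgeR adjusted p = 0.0228). That call was lost without PBS 2, PBS 3 or WGP 1 (adjusted p = 0.0875, 0.0578 and 0.0660), and Psmb7 shares 405 bases with Nek6 on the opposite strand, whose log2 fold change was -1.56.

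**Figure D2:**
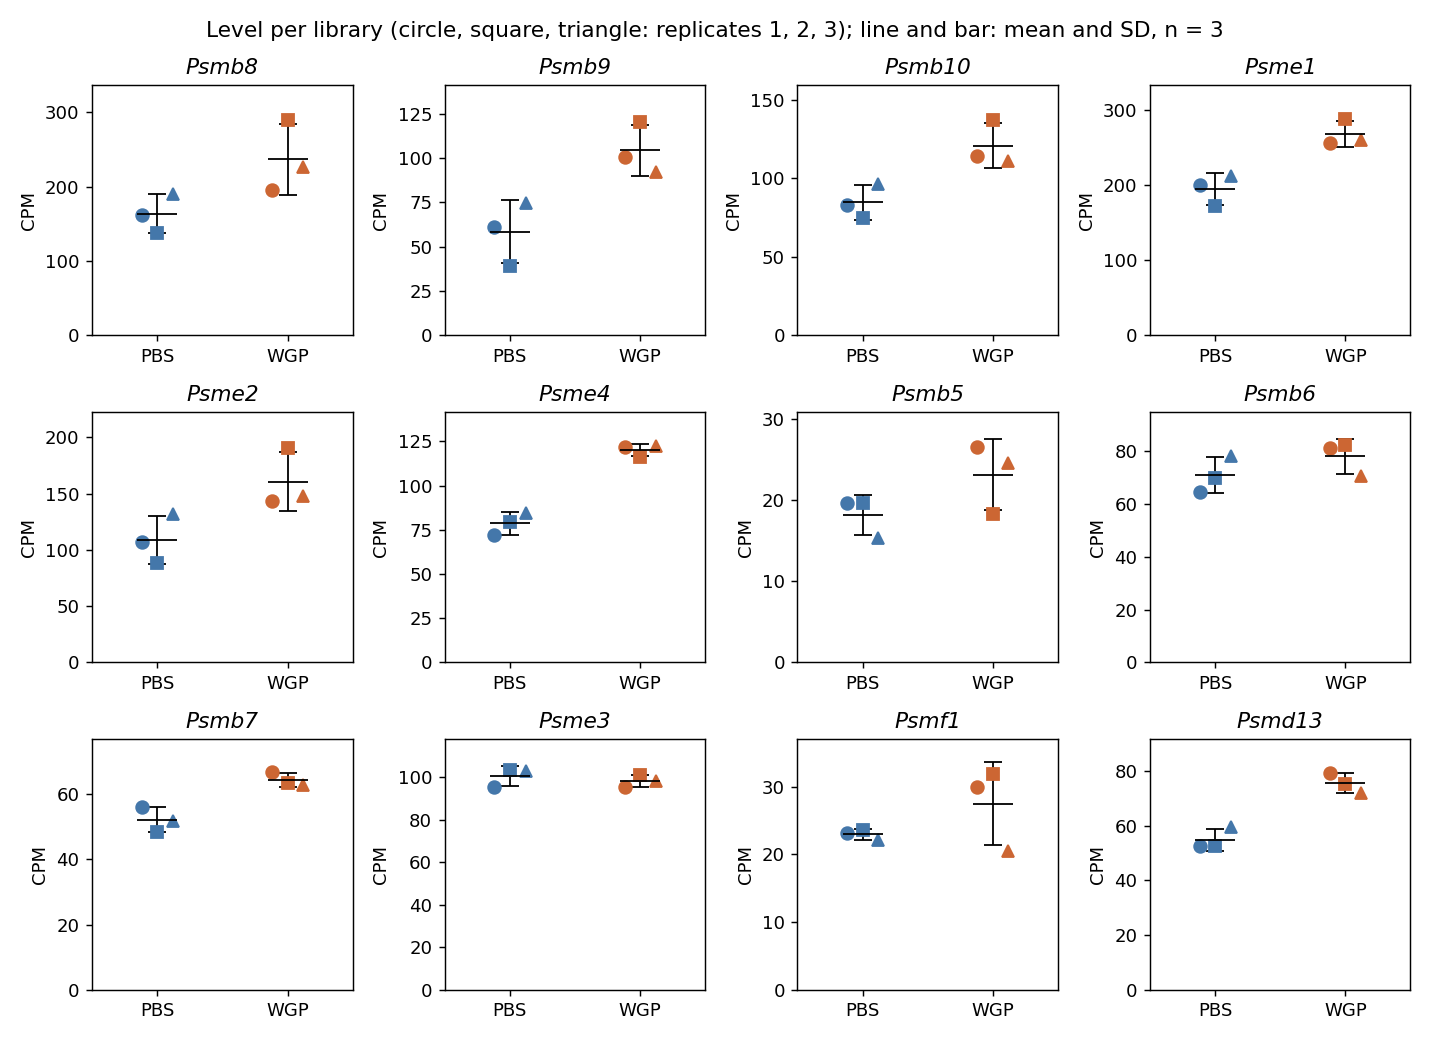
TMM-normalised CPM (y axis, from 0) of 12 members in each library, with symbols for replicates and a line and bar for mean and SD (n = 3). The groups are separate for Psmb8, Psmb9, Psmb10, Psme1, Psme2, Psme4, Psmb7 and Psmd13 and overlap for Psmb5, Psmb6, Psme3 and Psmf1.

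Each inducible subunit was set against the constitutive subunit it replaces as a ratio within a library of counts per kilobase of merged exons, a comparison that no scaling between libraries affects. Psmb9 over Psmb6 was 0.485, 0.289 and 0.488 after PBS and 0.633, 0.747 and 0.668 after WGP. The groups were separate, and the mean log2 ratio differed by 0.74, with the smallest p that 3 libraries against 3 allow (exact two-sided permutation test, p = 0.1, adjusted over 3 ratios 0.3), so this design cannot reach the threshold. The difference was 0.49 without PBS 2 and 1.24 with PBS 2 as the lone PBS library. Psmb8 over Psmb5 was 2.19, 1.87 and 3.30 after PBS and 1.95, 4.21 and 2.45 after WGP, and here the groups overlapped (log2 difference 0.19, exact permutation p = 0.6). Without WGP 2 the sign turned, to -0.12, and without PBS 2 the difference was 0.02. Psmb10 over Psmb7 was 2.97, 3.08 and 3.74 after PBS and 3.42, 4.34 and 3.54 after WGP, again overlapping (log2 difference 0.21, exact permutation p = 0.3). Without WGP 2 it was 0.10.

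As a share of the summed catalytic subunits, per kilobase of merged exons, the immunoproteasome genes made up 60.9%, 56.5% and 64.3% after PBS and 62.2%, 70.6% and 65.4% after WGP. The means were 60.6% ± 3.9 and 66.0% ± 4.2 (SD, n = 3), and PBS 3 lay above WGP 1, so the groups overlapped. The inducible genes held the larger share of the catalytic transcripts in every PBS library. The difference of 5.46 percentage points was 3.44 without PBS 2, 3.20 without WGP 2 and 9.50 with PBS 2 alone.

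Part of the constitutive 20S core was higher as well. Of the 14 constitutive core genes 5 rose (35.7%, against 15.2% of all genes tested), with a median log2 fold change of 0.26. Under scaling by library sizes alone 3 of the 14 rose (21.4%, background 10%), with a median of 0.16 (all genes -0.12). In the main analysis the WGP libraries of 9 of the 14 lay above all PBS libraries (background 23.2%). In the α-ring 2 of 7 tested genes rose (28.6%). Psma2 was at 70.2, 73.4 and 82.4 CPM after PBS and 97.3, 109 and 95.9 after WGP, with no overlap (log2 fold change 0.42 ± 0.09, edgeR adjusted p = 0.0049). Psma7, which had the highest core level per coding kilobase in both groups, had a log2 fold change of 0.53 ± 0.12 (edgeR adjusted p = 0.0102). At the other end of the ring Psma6 was at 85.9, 70.1 and 67.9 CPM after PBS and 74.5, 73.0 and 70.4 after WGP. Its groups overlapped and its log2 fold change was -0.04 ± 0.10.

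Among the β-subunits without protease activity 2 of 4 rose (background 15.2%), and in all 4 the WGP libraries lay above the PBS libraries (background 23.2%). Psmb1 was at 95.8, 89.7 and 99.2 CPM after PBS and 126, 118 and 118 after WGP, a log2 fold change of 0.34 ± 0.07 (edgeR adjusted p = 0.0053). Psmb3 had 0.35 ± 0.11 (adjusted p = 0.0321), and its call was lost without PBS 1, PBS 2, WGP 2 or WGP 3 (adjusted p = 0.124, 0.102, 0.110 and 0.0659). Psmb4 and Psmb2 missed the threshold at 0.28 ± 0.10 and 0.21 ± 0.07 (edgeR adjusted p = 0.0517 and 0.0535). Psmb4 passed without PBS 3 (adjusted p = 0.0127), as did Psma1 of the α-ring (0.0312).

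Of the 17 genes of the 19S regulatory particle in the symbol pattern 2 rose (11.8%, against 15.2% of all genes tested), both in the lid. The median log2 fold change was 0.09, which turned to -0.01 under scaling by library sizes alone. Sem1 of the lid and Adrm1 of the base lie outside the pattern and are not counted here. Sem1 rose by 0.39 ± 0.07 (edgeR adjusted p = 0.0029), and Adrm1 did not pass (0.01 ± 0.10). None of the 6 ATPases of the base passed in edgeR, none had an unadjusted p under 0.05, and DESeq2 and limma-voom called none. Psmc4 was at 66.5, 68.3 and 70.3 CPM after PBS and 85.1, 65.8 and 78.9 after WGP. WGP 2 was below all PBS libraries, and without it the log2 fold change of 0.16 ± 0.10 became 0.27 and passed (adjusted p = 0.0460). Psmc5 was at 55.1, 49.5 and 58.6 CPM after PBS and 53.8, 53.3 and 46.6 after WGP, with overlap and a log2 fold change of -0.09 ± 0.10.

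The scaffold and ubiquitin receptor genes of the base also gave no call. Psmd4, a ubiquitin receptor, was at 97.8, 92.4 and 102 CPM after PBS and 115, 108 and 106 after WGP. These groups were separate but close, with a log2 fold change of 0.17 ± 0.07 (edgeR adjusted p = 0.108). Psmd1, a scaffold of the base, was at 73.6, 66.7 and 71.3 CPM after PBS and 66.0, 63.8 and 60.4 after WGP. It was lower in each WGP library, at -0.15 ± 0.08 (edgeR adjusted p = 0.182).

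In the lid Psmd13 had the clearest difference. It was at 52.6, 52.6 and 59.5 CPM after PBS and 79.3, 75.2 and 72.1 after WGP, with a wide gap between the groups and a log2 fold change of 0.46 ± 0.09 (edgeR adjusted p = 0.0027). Psmd13 shares 342 bases with Sirt3 on the opposite strand, which was at 8.93 CPM after PBS and 12.98 after WGP on average (log2 fold change 0.54 ± 0.20, edgeR adjusted p = 0.0641), and reads of the shared bases cannot be told apart. Psmd8 rose by a log2 fold change of 0.24 ± 0.08 (edgeR adjusted p = 0.0353), a call lost without PBS 1, PBS 2 or WGP 2 (adjusted p = 0.145, 0.101 and 0.116). Psmd7, a lid subunit that pairs with the deubiquitinase Psmd14, was at 49.8, 53.9 and 54.6 CPM after PBS and 47.8, 48.4 and 39.1 after WGP. All WGP libraries were lower, WGP 3 most, at -0.23 ± 0.10 (edgeR adjusted p = 0.126). Psmd14 itself, which removes ubiquitin from substrates, had -0.10 ± 0.12.

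Summed per kilobase of merged exons, the 20S core over the 19S particle was 1.04, 1.01 and 1.02 after PBS and 1.12, 1.16 and 1.14 after WGP. Sem1 and Adrm1 are not in the 19S sum. The ratio varied little within a group and was higher in all 3 WGP libraries, by 0.15 on the log2 scale, and by 0.14 to 0.17 when any 1 library was left out. Per coding kilobase the median 19S gene was at 48.7 CPM after PBS and 51.4 after WGP, and the core ran from Psmb5 at 23.0 to Psma7 at 163 after PBS.

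**Figure D3:**
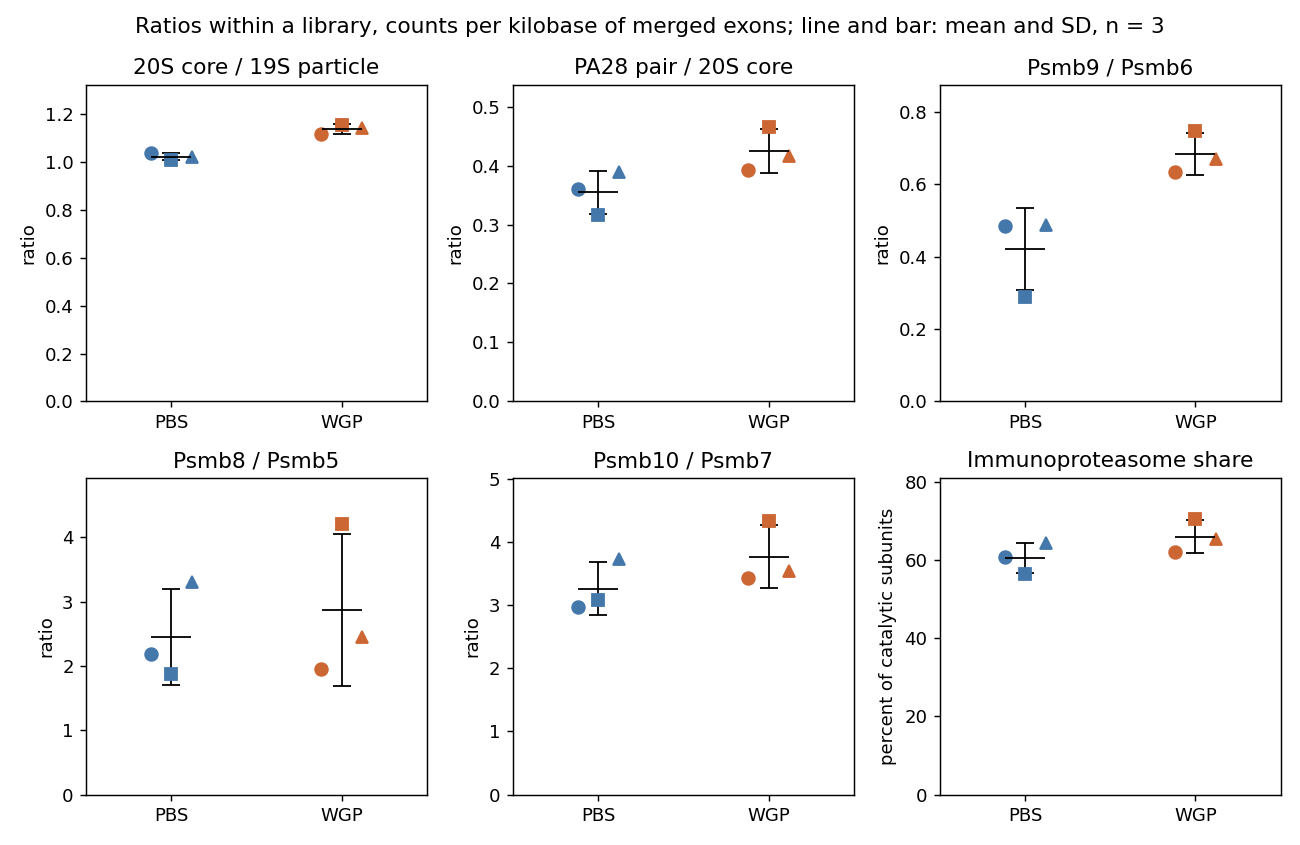
Ratios and one share of summed transcripts within each library (y axes, from 0, counts per kilobase of merged exons), with a line and bar for mean and SD (n = 3). The WGP libraries lie above all PBS libraries for 20S over 19S, PA28 over 20S and Psmb9 over Psmb6, and the groups overlap for the other panels.

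Of the 5 genes for activators 3 rose (60%, against 15.2% of all genes tested). Psme1, the α-subunit of the PA28 cap (chromosome 14, 55578123 to 55581529), was at 200.1, 172 and 212 CPM after PBS and 256, 287 and 259.7 after WGP. No library crossed between groups, and the log2 fold change was 0.46 ± 0.09 (edgeR adjusted p = 0.0032). Psme2, the β-subunit (chromosome 14, 55587441 to 55591113), was at 107, 88.2 and 131 CPM after PBS and 143, 191 and 148 after WGP. The groups were separate with PBS 3 close to WGP 1, and the log2 fold change of 0.56 ± 0.17 passed narrowly (edgeR adjusted p = 0.0455). It no longer passed without PBS 1, PBS 2, WGP 2 or WGP 3 (adjusted p = 0.146, 0.0839, 0.0747 and 0.0704), and was 0.86 with PBS 2 as the lone PBS library.

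Psme1 over Psme2 differed by -0.10 on the log2 scale, with overlapping groups. Psme2b, the Psme2 copy, had 0.74 ± 0.27 (edgeR adjusted p = 0.0596) at 5.71 to 16.3 CPM, and it passed without PBS 3 or WGP 1 (adjusted p = 0.0229 in each). Reads of the copy and its parent may be shared or lost in counting, so its value is uncertain.

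Psme4, which encodes PA200, a large single-chain cap found in the nucleus and known for its part in histone degradation, had the smallest p of all members. It was at 71.9, 79.4 and 84.5 CPM after PBS and 122, 116 and 122 after WGP, so the spread within each group was small against the gap. Its log2 fold change was 0.61 ± 0.08 (edgeR adjusted p = 0.0003), and it ran from 0.51 to 0.68 over the 16 alternatives, passing in each. Against the summed 20S core it was at a ratio of 0.0204, 0.0234 and 0.0229 after PBS and 0.0290, 0.0271 and 0.0301 after WGP.

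Psme3, the nuclear PA28γ, was at 95.2, 103 and 103 CPM after PBS and 95.6, 101 and 98.3 after WGP. The groups overlapped, with a log2 fold change of -0.03 ± 0.07 (edgeR adjusted p = 0.78). The PA28 pair over the 20S core was 0.360, 0.315 and 0.388 after PBS and 0.393, 0.465 and 0.415 after WGP. WGP 1 was barely above PBS 3, and the log2 difference of 0.26 became 0.43 with PBS 2 as the lone PBS library.

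Psmf1, which encodes the inhibitor PI31, was at 23.1, 23.7 and 22.1 CPM after PBS and 30.0, 31.9 and 20.5 after WGP. WGP 3 lay below all PBS libraries and the others above, and the log2 fold change of 0.26 ± 0.16 did not pass (edgeR adjusted p = 0.26) but did without WGP 3 (0.43, adjusted p = 0.0357). None of the 7 genes for assembly chaperones passed in edgeR, none had an unadjusted p under 0.05, and DESeq2 and limma-voom called none. Psmg4 was at 9.28, 6.95 and 11.2 CPM after PBS and 11.2, 11.1 and 11.4 after WGP (log2 fold change 0.30 ± 0.20). Psmd5, a chaperone of the base, was at 19.8, 27.0 and 20.9 CPM after PBS and 18.9, 21.7 and 19.4 after WGP (-0.18 ± 0.15). Both genes overlapped between the groups, and chaperone levels ran from 3.89 to 27.0 CPM over all libraries.

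The 3 inducible catalytic genes and the PA28 pair ordered the libraries alike. In all 5 genes PBS 3 was the highest and PBS 2 the lowest PBS library, and WGP 2 was the highest WGP library. In the constitutive core PBS 3 was highest for 9, PBS 2 lowest for 6 and WGP 2 highest for 8 of 14 genes, and in the 19S particle these were 12, 8 and 4 of 17. Of the marker sums, that of lymphocytes had the same extremes, at 60.9, 48.1 and 62.5 CPM after PBS and 13.8, 70.5 and 45.6 after WGP. The alveolar macrophage sum was also highest in WGP 2 among the WGP libraries (1590.3 CPM). Among the PBS libraries it was highest in PBS 2 (7200 CPM) and lowest in PBS 3 (4803), the reverse of these genes. So was the neutrophil sum, at 2520.2 CPM in PBS 2 and 1139.9 in PBS 3. The interstitial macrophage sum was highest in PBS 3 (9219 CPM) and lowest in PBS 2 (8187), but highest in WGP 1 (7654) after WGP. The monocyte sum was highest in WGP 1 (7998 CPM) and lowest in WGP 2 (6617). The part of these cells in the order of the libraries was not tested. As genes within a library share its cells and depth, these orders are a description.

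Genes of the class I peptide pathway and of its inducers were examined beside them. Of 11 genes 5 rose (Tap1, Tap2, Tapbp, Tapbpl and Erap1), 3 fell (Calr, Canx and Pdia3) and 3 did not pass. The shares over all genes tested were 15.2% higher and 15.7% lower. Tap1, a subunit of the peptide transporter that lies between Psmb9 and Psmb8 on chromosome 17 (34187553 to 34197225), was at 179.7, 139.7 and 226 CPM after PBS and 299, 442 and 307 after WGP. The order of the libraries was that of the immunoproteasome genes, with PBS 2 lowest and WGP 2 highest, and the log2 fold change was 0.94 ± 0.24 (edgeR adjusted p = 0.0330). That call was lost without PBS 1, PBS 2 or WGP 3 (adjusted p = 0.119, 0.0594 and 0.0515), and with library sizes alone (0.0603), no filter on low counts (0.0734) or the replicate block (0.123). Tapbp, the tapasin that loads peptides onto class I, had 0.45 ± 0.09 (edgeR adjusted p = 0.0044) and passed in all 16 alternatives. Tap2, the other transporter subunit, Tapbpl, a relative of tapasin, and Erap1, which trims peptides, had 0.46 ± 0.13, 0.55 ± 0.15 and 0.29 ± 0.08. Without PBS 2 their adjusted p was 0.101, 0.0812 and 0.0645. Tap2 also lost its call without PBS 1 or WGP 3 (0.106 and 0.0592), Tapbpl without PBS 3 (0.0664) and Erap1 without PBS 1 or WGP 2 (0.0589 and 0.0556). B2m, the light chain of class I, had 0.20 ± 0.08 and did not pass (edgeR adjusted p = 0.106), though it did without PBS 3 (0.0206).

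The general chaperones of the endoplasmic reticulum that also serve class I folding went the other way, Calr by -0.62 ± 0.07 and Canx by -0.40 ± 0.07 (edgeR adjusted p = 0.0001 and 0.0021). Pdia3, a disulfide isomerase of the same compartment, had -0.28 ± 0.07 (edgeR adjusted p = 0.0143, and 0.0655 without WGP 3). The inducers spread widely. Irf1, a transcription factor of the interferon response, was at 217, 159.9 and 242 CPM after PBS and 278, 518 and 318 after WGP. Nlrc5, the transactivator of class I genes, was at 129.9, 82.2 and 174 CPM after PBS and 182, 261 and 184 after WGP. PBS 2 was lowest and WGP 2 highest for both, and the log2 fold changes of 0.85 ± 0.30 and 0.70 ± 0.33 did not pass in edgeR (adjusted p = 0.0984 and 0.184). Irf1 did pass in DESeq2 and limma-voom, and Nlrc5 in limma-voom.

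**Figure D4:**
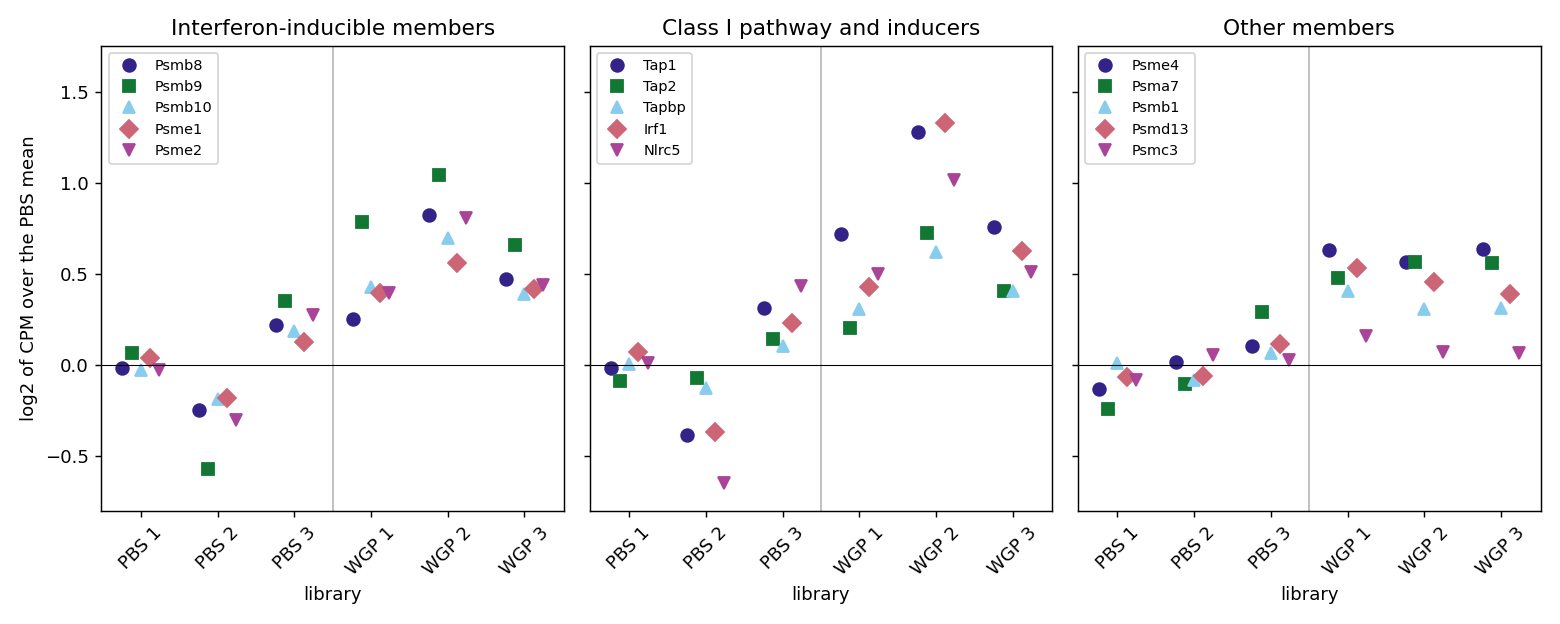
Log2 of CPM over the mean of the PBS libraries (y axis) for each library (x axis) in 5 interferon-inducible proteasome genes, 5 genes of the class I pathway and its inducers, and 5 other members. In the first panel PBS 2 is lowest and WGP 2 highest for all genes. In the last panel all 5 genes, picked from the other members, are above all PBS libraries in every WGP library, Psmc3 only just. Of all 48 tested members 20 were (background 23.2%).

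Outside the symbol pattern, of 10 genes for partners of the proteasome 2 rose, 3 fell and 5 did not pass. Beside these small counts, 15.2% of all genes tested rose and 15.7% fell. Sem1, a small lid subunit, rose by 0.39 ± 0.07 (edgeR adjusted p = 0.0029) and passed in all 16 alternatives, and Pomp, the chaperone that matures the core, rose by 0.26 ± 0.08 (edgeR adjusted p = 0.0273), a call lost without PBS 1, PBS 2, WGP 1 or WGP 3 (adjusted p = 0.0593, 0.101, 0.0825 and 0.0654). Usp14 and Uchl5, the deubiquitinases that bind the 19S cap reversibly, fell. Usp14 was at 36.7, 31.6 and 28.6 CPM after PBS and 24.8, 17.95 and 19.8 after WGP, without overlap (-0.63 ± 0.15, edgeR adjusted p = 0.0090, and 0.0522 without PBS 1). Uchl5 had -0.52 ± 0.16 (edgeR adjusted p = 0.0301) and Txnl1, a thioredoxin-like protein of the cap, -0.29 ± 0.09 (edgeR adjusted p = 0.0328). Uchl5 lost its call when any 1 library other than WGP 2 was left out (adjusted p up to 0.0976 without WGP 3), and Txnl1 when any 1 was (up to 0.129 without PBS 1).

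Nfe2l1, the transcription factor known to raise proteasome genes when proteasome activity is short, was lower. It was at 175, 181 and 160.4 CPM after PBS and 97.9, 117 and 105 after WGP, far apart, at a log2 fold change of -0.69 ± 0.09 (edgeR adjusted p = 0.0002). Ddi2, the protease that activates it, was higher at 0.38 ± 0.10 (edgeR adjusted p = 0.0144), a call lost without PBS 1 (adjusted p = 0.0743), with library sizes alone (0.0527) and with a covariate for Y-linked transcripts (0.104). With PBS 2 as the lone PBS library Ddi2 had 0.19 (adjusted p = 0.348). Of the 9 genes of shuttle factors and this pathway, Ddi2 was the only one that rose (background 15.2%). Nfe2l1 and the shuttle genes Ubqln1, Ubqln2 and Ubqln4 were the 4 that fell (background 15.7%). Ubqln1, which carries ubiquitinated proteins to the proteasome, was at 156, 182 and 145 CPM after PBS and 119, 123 and 112 after WGP (-0.45 ± 0.09, edgeR adjusted p = 0.0038). Ubqln4 had -0.53 ± 0.09 (edgeR adjusted p = 0.0018) and Ubqln2 -0.38 ± 0.11 (0.0271). The Nfe2l1 and Ubqln1 calls stood in all 16 alternatives, whereas Ubqln2 lost its call without PBS 1, PBS 2, WGP 1 or WGP 3 (adjusted p = 0.104, 0.0708, 0.0846 and 0.110).

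Of 4 genes of ubiquitin and its activating enzymes, 2 rose (background 15.2%), 1 fell (background 15.7%) and 1, Uba6, did not pass. Ubb, a polyubiquitin gene known as stress-inducible, fell from 361, 396 and 359.9 CPM to 311, 322 and 309 (-0.24 ± 0.07, edgeR adjusted p = 0.0202), a call lost without PBS 2, WGP 1 or WGP 3 (adjusted p = 0.0669, 0.0582 and 0.0712). Its groups did not overlap. Rps27a, which encodes ubiquitin fused to a ribosomal protein, was higher at 0.27 ± 0.08 (edgeR adjusted p = 0.0250), as was Uba1, the main ubiquitin-activating enzyme, at 0.22 ± 0.06 (edgeR adjusted p = 0.0221). Rps27a lost its call without PBS 1, PBS 2 or WGP 3 (adjusted p = 0.111, 0.0876 and 0.0985), and Uba1 without PBS 1, PBS 2, WGP 2 or WGP 3 (0.0878, 0.0668, 0.0634 and 0.0525). Reads of Rps27a can be shared with its pseudogenes, so its value is less certain.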

How the data were processed

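The authors deposited raw read counts per gene, as whole numbers, for 6 libraries. FastQC 0.10.1 and HTSeq 0.10.0 and the builds GRCm38 and mm10 are named in the submitters' processing notes. No source used here gives the aligner, the annotation or the strand setting. Groups and replicate numbers come from the labels. Symbols and coordinates are from GENCODE M21 (GRCm38), which matched 21939 of 21965 identifiers, and promoters from RefSeq (GRCm38), of which the start of 41 of 45 was found in the transcripts it names. Protein sequences were not used here.

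Counts were fitted in edgeR 4.0.16 (R 4.3.3) with filterByExpr, TMM scaling and robust glmQLFit, with Benjamini-Hochberg adjustment over 12305 genes and a threshold of 0.05. The SE is the log2 fold change divided by the square root of F, and CPM are TMM-scaled. The fit was tested on simulated data. DESeq2 1.42.0, limma-voom (limma 3.58.1), other scalings and filters, a replicate block, a Y-linked covariate and left-out libraries were alternatives. With PBS 2 as the lone PBS library, it is assumed to vary like the WGP libraries. Ratios were tested by exact permutation (scipy 1.17.1). Differences between libraries of 1 group exceeded the noise of sampling reads (chi-square per degree of freedom 14.1 to 26.2), so no library was a plain recount of another. Separate preparations of the same material could also differ, so these values do not show that the libraries came from different mice.

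The members and lists were chosen with earlier results of these data known. Values in every library are given for the catalytic and inducible subunits, the activators and the inhibitor, and in each other class for the gene with the smallest p in each direction. Of related lists up to 4 genes were to be named by smallest p. Others were picked once their values were known, where a count was 5 or fewer, and Tap1, Irf1 and Nlrc5 for their library values. Some genes of the lists are not reported here and were left out of their counts and sums.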

Additional observations from a re-analysis of the deposited data

How the results depend on the processing

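Of the 12 calls, 7 (Psma2, Psma7, Psmb1, Psmb10, Psmd13, Psme1 and Psme4) held in all 16 alternatives, and 5 (Psmb3, Psmb7, Psmb9, Psmd8 and Psme2) were lost in at least 1. Library sizes alone as scaling gave 7 members higher and 2 lower (10% and 20% of all genes tested), without those 5 calls. With no filter on low counts Psmb9 and Psme2 were lost, without PBS 1 and 3 Psmb3, Psmb7 and Psmd8, and with the Y-linked covariate Psmb7. Leaving out 1 library gave 8 to 15 members higher and 0 lower. In these fits 9.63% to 13.9% of all genes tested were higher and 10.3% to 15.5% lower. The replicate block gave 8 higher and 0 lower (12.9% and 13% of all genes tested), without Psmb3, Psmb9, Psmd8 and Psme2. Same-numbered libraries deviated from their group means with correlations of -0.063, -0.081 and -0.046, each below those with other numbers. No pairing by number showed in these values, but so few libraries cannot settle whether any shared a harvest or sort. Leaving out 1 library, the immunoproteasome share differed by 3.20 to 7.40 percentage points. The log2 ratios differed by -0.12 to 0.43 for Psmb8 over Psmb5, 0.49 to 0.86 for Psmb9 over Psmb6, 0.10 to 0.31 for Psmb10 over Psmb7, 0.18 to 0.33 for PA28 over 20S, 0.14 to 0.17 for 20S over 19S, 0.31 to 0.41 for Psme4 over 20S and -0.19 to -0.03 for Psme1 over Psme2. Without PBS 1 and 3, Psmb9 over Psmb6 differed by 1.24 and PA28 over 20S by 0.43. The cause was not tested. The last 4 ratios and their alternatives, and those of genes outside the symbol pattern, were added after the data were seen.

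Among members that passed in neither fit, 34 log2 fold changes of 13 genes took the opposite sign. When 1 library was left out these ranged for Psma3 -0.064 to 0.042, for Psma6 -0.11 to 0.069, for Psmc2 -0.11 to 0.028, for Psmd6 -0.016 to 0.18, for Psmd11 -0.070 to 0.040, for Psmd14 -0.21 to 0.025, for Psmg1 -0.089 to 0.42, for Psmg2 -0.013 to 0.25, for Psmd9 -0.13 to 0.11. They were, with limma-voom Psma3 2.3e-05, with the replicate block Psma3 0.00025, with the Y-linked covariate Psma3 0.048 and Psmc5 0.0059, without PBS 1 and 3 Psma6 0.053, Psmc5 0.052, Psmc6 0.054, Psmd6 -0.0090, Psmg1 -0.00047 and Psmd9 -0.091, with library sizes alone Psmc1 -0.0082, Psmc3 -0.0018, Psmd6 -0.037, Psmd11 -0.10 and Psmd9 -0.077, with DESeq2 size factors Psmd11 -0.00057, with no filter Psmd11 -0.0016, with the CPM filter Psmd11 -0.0066, with DESeq2 Psmd11 -0.00071. SEs of the chaperones and Psme2b reached 0.30, and whether depth set them was not tested.

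Of genes outside the symbol pattern, Sem1, Tapbp, Calr, Canx, Nfe2l1 and Ubqln1 kept their calls in all 16 alternatives. With library sizes alone Tap1, Tap2, Tapbpl, Erap1, Pomp, Rps27a, Uba1 and Ddi2 lost theirs (adjusted p = 0.0603, 0.0708, 0.0691, 0.103, 0.175, 0.113, 0.171 and 0.0527). The replicate block ended those of Tap1, Tapbpl and Txnl1 (0.123, 0.0901 and 0.0657), and the Y-linked covariate those of Tapbpl, Uchl5, Txnl1 and Ddi2 (0.0668, 0.0905, 0.0757 and 0.104). Without PBS 1 and 3 the calls of Tap1, Tap2, Tapbpl, Erap1, Pdia3, Usp14, Uchl5, Txnl1, Ubqln2, Ubqln4, Ddi2, Rps27a and Uba1 were lost (adjusted p from 0.0524 to 0.348).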
